A study of Rattus norvegicus with 36 samples.

Results

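Untreated rat lung slices at the labelled time 72 were compared with untreated slices at the labelled time 0. The aim was to describe gene expression after culture without TGFb or a drug. The effects of culture, of elapsed time and of the slicing before it cannot be told apart in this design. Precision-cut lung slices are thin living sections of lung that keep airway, alveolar, vascular and immune cells in their native arrangement, and the series used them as a model for testing anti-fibrotic drugs. The 12 untreated libraries, 6 at each time, were taken by sample title from 36 libraries in all. The other 24 libraries are 6 each of slices with TGFb at 72, and of slices with TGFb together with Pirf, Nint or Sora at 72. The 12 untreated libraries received neither TGFb nor a drug, and the time labels carry no unit. The labels used here name no strain, sex, age, culture medium or animal, so p-values measure the spread between libraries, which may be technical. For the gene tests that spread was estimated from all 36 libraries, treated ones included.

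Slicing wounds the tissue and ends its blood flow, its breathing movements and its supply of hormones and circulating cells. In culture, lung explants are generally known to mount a wound response, to deposit and remodel matrix, and to lose some specialised functions such as surfactant production and drug metabolism. Those functions are carried by known genes, but the count table lists Ensembl IDs without symbols, and 0 of the 15644 tested IDs were paired with a symbol from the tables used here. The change is therefore described below by its extent, size, abundance and variation between slices. It is given for single IDs only at its extremes, and neither the tissue label nor any cell type was checked against marker genes. In bulk tissue, fewer cells of a type and less RNA per cell cannot be told apart.

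The time-0 libraries held 15886927 to 23255533 counts each, and the untreated libraries at 72 held 18971526 to 26361504. At time 0, replicates 1 and 3 stood apart from the other 4 libraries. On log2 CPM (counts scaled to one common library total) over the tested genes, replicates 1 and 3 correlated with each other at r = 0.972 and with the other 4 at r = 0.934 to 0.966, whereas the other 4 correlated among themselves at 0.971 to 0.984. Replicate 1 correlated at 0.939 with replicate 2 and at 0.961 to 0.966 with replicates 4, 5 and 6. Replicate 3 correlated at 0.934 with replicate 2 and at 0.952 to 0.958 with replicates 4, 5 and 6. The grouping of replicates 1 and 3 was read from these same values. All 15 pairs of libraries at 72 lay between 0.97 and 0.983. These correlations run across genes, within libraries, and are given as a description. The biological coefficient of variation, the spread between libraries beyond counting error, was 0.27 at time 0 and 0.194 at 72, and 0.177 among the 4 time-0 libraries without replicates 1 and 3. In the treated groups it ranged from 0.147 to 0.232. Values without replicate 1 or 3 are given for the counts of called genes, their size classes and the named IDs; the counts by abundance, by coding table and of genes at 0 were not recomputed without them.

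Most of the measured transcriptome differed between untreated slices at 0 and at 72. Of 15644 genes tested, 11454 (73.2%) differed between 0 and 72 at an adjusted p under 0.05 in edgeR's quasi-likelihood test, with Benjamini-Hochberg adjustment. Higher levels at 72 were called in 5938 genes (38%) and lower levels in 5516 (35.3%). Changes of at least 2-fold were called in 4295 genes (27.5%), of which 2276 were higher and 2019 lower. Without time-0 replicates 1 and 3 the last total was 4742. The 2 directions were close in number, and which one held more genes depended on the processing. DESeq2 with its own size factors, run without edgeR's filter on low counts, called 5812 higher and 6306 lower. With no filter on low counts, edgeR called 5871 higher and 6233 lower. These 2 alternatives started from a wider set of genes than the 15644 of the main fit. More genes were called higher than lower in the other 19 alternatives run, by most with no scaling factors (6314 and 4947).

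**Figure D1:**
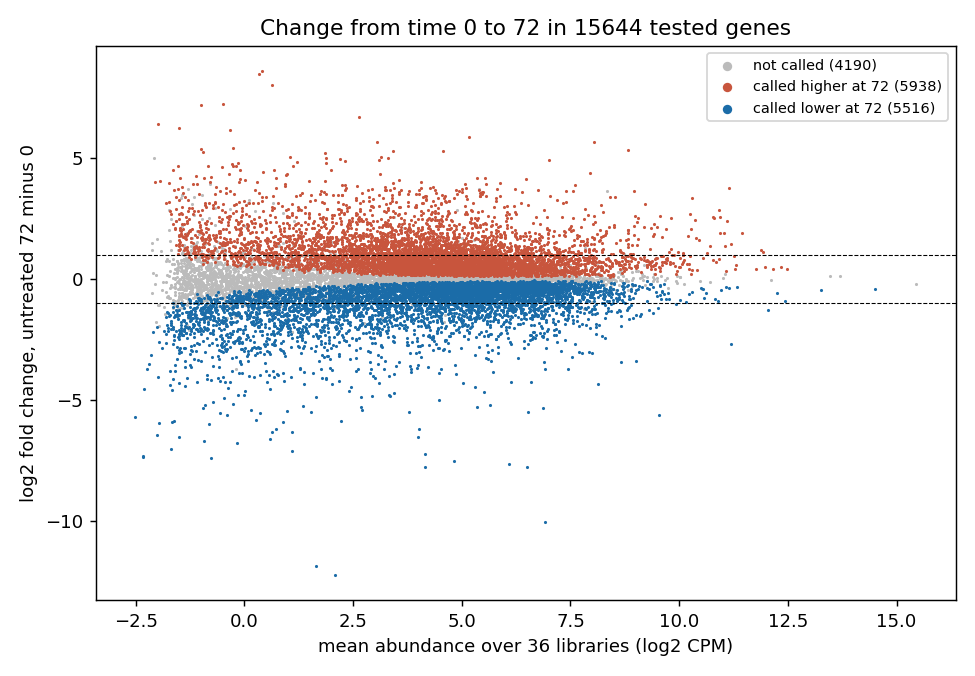
Log2 fold change from time 0 to 72 in untreated slices (y axis) against mean abundance over the 36 libraries in log2 CPM (x axis), one point per tested gene, with dashed lines at 2-fold. Called genes, 5938 higher and 5516 lower, lie on both sides of 0 over most of the abundance range, and 4190 genes were not called.

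The separation could also be read without a model. In 7718 genes (49.3%) all 6 libraries of one time lay above all 6 of the other, 4112 of them higher at 72 and 3606 lower. All but 6 of these were called. A further 3742 called genes had at least 1 library inside the other group's range. The number without overlap was 8381 when time-0 replicate 3 was left out and 8243 when replicate 1 was left out. Leaving out any library can only keep or raise this number.

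Most changes were modest in size. The middle 50% of tested genes had log2 fold changes between -0.55 and 0.64, and the 5th and 95th percentiles were -1.84 and 1.89, around a median of 0.02. The scaling factors between libraries assume that most genes are unchanged and place the bulk of genes near 0. With no scaling factors the median was 0.09, and 56.1% of called genes were higher, against 51.8% in the main fit. A rise or fall of RNA as a whole cannot be seen in such counts. The median standard error of a log2 fold change was 0.12. Of the 4190 genes not called, 2179 had a 95% interval that lay wholly within 1.5-fold in either direction and 2967 one within 2-fold, so for these the data bound the change. For the remaining 1223 genes the interval reached past 2-fold in at least 1 direction. Among the called genes, 2446 also had an interval wholly within 1.5-fold.

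Among the larger changes, 679 genes were called at least 4-fold higher at 72 and 641 at least 4-fold lower. Without time-0 replicate 3 these numbers were 783 and 676, and without time-0 replicates 1 and 3 together 834 and 712. More losses than gains were called at 4-fold with DESeq2 (773 and 1079), with no filter on low counts (826 and 1291), in a fit of the 12 untreated libraries alone (566 and 603), and by at most 12 genes when replicate 3, 4 or 5 at 72 was left out. At 16-fold there were 65 gains and 103 losses. That order turned without time-0 replicate 3, which gave 128 gains and 105 losses, and without time-0 replicates 1 and 3 together, which gave 137 and 110. Leaving out any other single untreated library kept the 16-fold gains between 57 and 72 and the losses between 101 and 118. The 16-fold numbers also moved with the method and the set of genes tested. They were 34 gains and 94 losses in the 12 untreated libraries alone, and 98 and 127 with limma. With no filter they were 99 and 194, and with DESeq2 78 and 170. At 4-fold and 16-fold, DESeq2 and the fit with no filter started from a wider set of genes than the main fit. Limma covered only the authors' table of expressed protein-coding genes. At 64-fold there were 9 gains and 24 losses. Leaving out any 1 time-0 library gave 12 to 21 gains and 23 to 27 losses, with 21 and 23 without replicate 3, and leaving out replicates 1 and 3 together gave 27 and 26. These are fitted fold changes, and in genes with a group at or near 0 counts they depend on the model.

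**Figure D2:**
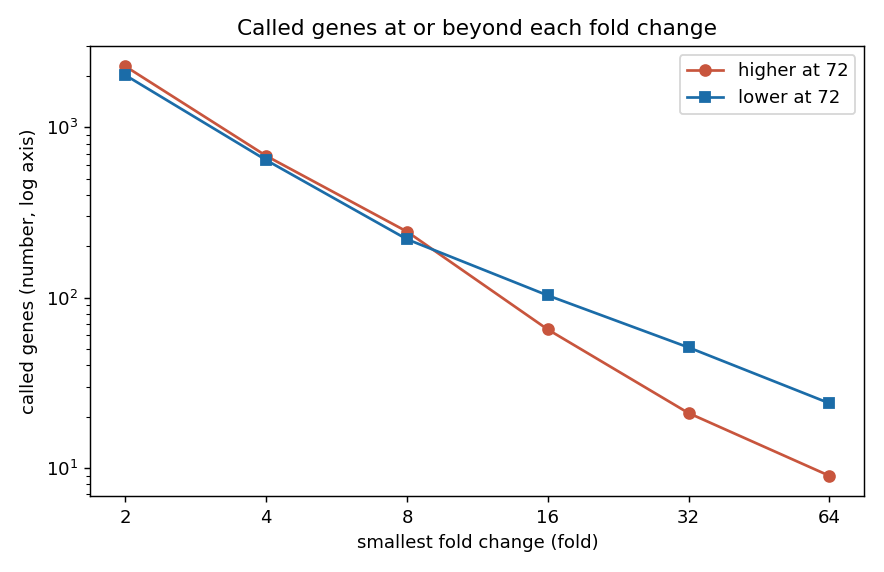
Number of called genes (y axis, log scale) at or beyond each fold change (x axis, log scale) in untreated slices, higher at 72 in red circles and lower in blue squares. The 2 lines run together up to 8-fold (244 higher, 220 lower) and part at 16-fold (65 higher, 103 lower).

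Replicate 3 at time 0 lay partly towards the cultured state in the genes that rose. So that no library chose its own genes, genes were called at 4-fold or more from all libraries except the one to be measured. That library was then set against the mean of the other 5 in its group. The same 5 took part in choosing the genes, which can move the measured library towards the other time. Replicate 3 is also in the mean that each other time-0 library was set against, so the values are not independent. In 771 genes chosen without it, time-0 replicate 3 lay a median of 0.95 on the log2 scale above the other 5. The other 5 time-0 libraries lay between -0.27 and 0 in the genes chosen without them. In genes that fell, replicate 3 lay at -0.35, and the other 5 between -0.17 and 0.19. At 72, all 6 libraries lay between -0.09 and 0.04 for genes that rose and between -0.003 and 0.11 for genes that fell. Replicate 3 was thus displaced towards 72 in both directions, more so in genes that rose, yet in 75.4% of the risen genes and 88.6% of the fallen ones it remained nearer to the time-0 mean than to the mean at 72. In the other 11 libraries, between 91.5% and 98.5% of risen genes and between 93.3% and 99.5% of fallen genes lay nearer to their own group. What sets replicate 3 apart was not tested.

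The genes that moved by 2-fold or more carried a sizeable part of the RNA. Each library was again measured on genes chosen without it, about 1983 to 2054 fallen and 2200 to 2415 risen genes. At time 0, genes that fall in culture held 17% ± 0.91 (SD, n = 6) of a library's counts, with a lowest of 15.6% and a highest of 18.2%. At 72 the same kind of genes held 5.66% ± 0.308, between 5.27% and 6.13%. Genes that rise held 4.76% ± 1.28 at time 0, where replicates 3 and 1 were highest at 6.66% and 6.1% and the other 4 lay between 3.74% and 4.24%. At 72 they held 15.2% ± 0.218, and the 6 libraries lay within 14.8% to 15.5%. Since the genes were chosen by direction, the order of the groups is fixed by the choice and was given no test. In the genes that rose, the SD between libraries was 1.28 percentage points at time 0 and 0.218 at 72, and the high SD at time 0 goes with replicates 1 and 3.

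**Figure D3:**
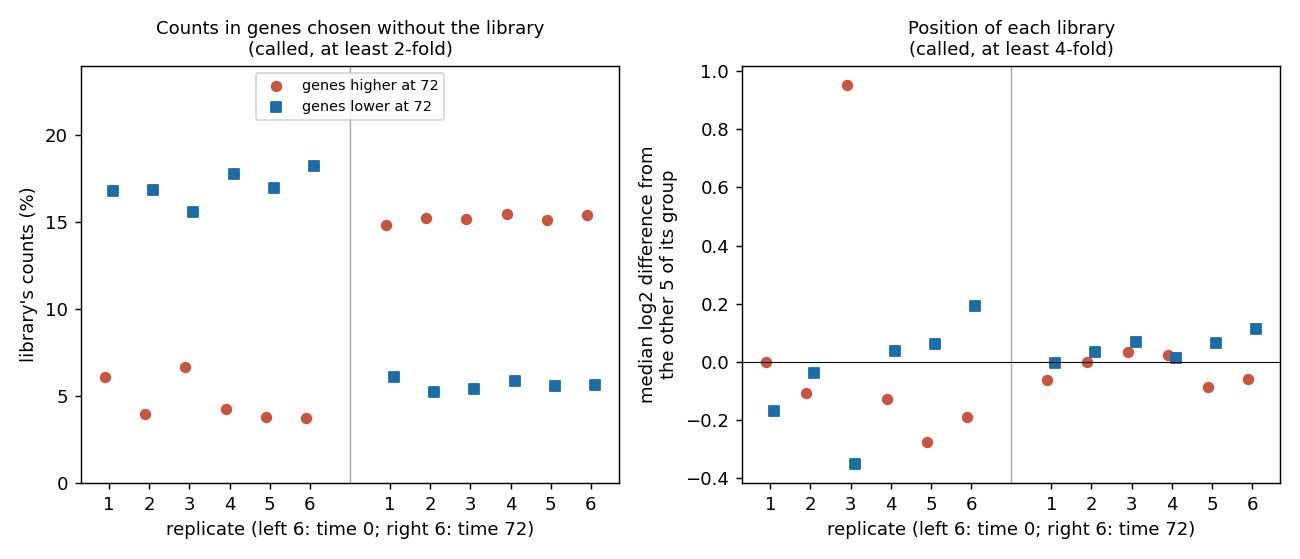
Left, share of each library's counts (y axis, %) in genes called at least 2-fold higher (red circles) or lower (blue squares) at 72, chosen without that library. Right, median log2 difference of each library from the other 5 of its group in genes called at 4-fold or more, where time-0 replicate 3 stands at 0.95 in genes higher at 72 and all libraries at 72 lie near 0.

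Calls were also counted by abundance. Tested genes were divided into 4 classes of 3911 by mean abundance over the 36 libraries. In the least abundant class, up to 2.02 log2 CPM, 58.1% were called, with 675 genes at least 2-fold higher and 890 at least 2-fold lower and a median log2 fold change of -0.15 among all its genes. In the second class, up to 4.21 log2 CPM, 76.8% were called, 721 at least 2-fold higher and 460 lower, with a median of 0.17. In the third class 78.6% were called and in the most abundant 79.3%, with medians of 0.06 and -0.03. Omitting the scaling factors moved the median of all genes by 0.07, so medians of that size carry no firm direction. Losses of 2-fold or more were most numerous in the least abundant class and gains in the second. Most of the 36 libraries behind the ranking were cultured, so a gene that falls is ranked near its low cultured level. A gene that rises is ranked near its high one. The ranking itself thus moves losses to lower classes and gains to higher ones. How much of the pattern in these counts and class medians comes from the ranking was not tested. The median standard error fell from 0.31 in the least abundant class to 0.07 in the most abundant, so the lower share called among rare transcripts goes with lower precision.

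Genes in the authors' table of expressed protein-coding genes, called the coding table here, were counted apart from those outside it, with no test of the difference. Among 14480 tested genes of the coding table, 39.6% were called higher and 35.2% lower, and their median log2 fold change was 0.04. Outside it, 17.3% of 1164 tested genes were called higher and 36.3% lower, with a median of -0.28. At 2-fold or more, 123 genes outside the coding table were higher at 72 and 197 lower, against 2153 and 1822 inside it. The table's name says that it holds expressed coding genes, so genes outside it can be noncoding or coding genes below the authors' filter. Their precision was lower, with a median standard error of 0.3 against 0.11.

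Outright switching was rare and confined to low counts in all but 1 gene. Over the whole table of 32883 genes, 23 had counts in all 6 libraries at time 0 and none in any at 72. Their summed counts over the 6 time-0 libraries had a median of 32, and in only 1 did they reach 100. In the opposite direction 14 genes had no counts in any time-0 library and counts in all 6 at 72, with summed counts of 12 to 44. Of the 23 genes lost, 3 had enough counts to be tested, and all 3 were called. They were selected on the same libraries that the test compares, so these calls add no support. A count of 0 is compatible with up to 3 counts, so low expression below that limit was not detectable.

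The gene lost outright with the highest count was ENSRNOG00000058357, which also had the lowest log2 fold change among the IDs that could be named. An ID could be named where the gene was called, its groups did not overlap and the group with more of it averaged 50 or more normalized counts. This was met by 3861 higher and 3378 lower genes, and the 2 highest and 2 lowest fold changes are given. The rule thus required the named IDs to be called and separated. Their adjusted p-values and lack of overlap are given as a description and add no support. Normalized counts are counts scaled by TMM (trimmed mean of M values) factors to the mean library size. At time 0 the 6 libraries held 609.9, 359, 411, 491, 468 and 472 normalized counts of ENSRNOG00000058357. At 72 all 6 held 0, so the level was at least 899.6-fold lower, taking 3 counts in the 6 libraries together as the limit (adjusted p = 4.7e-08, edgeR). Among the 24 treated libraries at 72, all were also at 0 except within the Nint group, where 19 raw counts were found and the highest library held 10.2 normalized counts. The transcript was thus still detected in some slices at 72, and it remained far below its level at time 0 wherever it was seen.

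ENSRNOG00000019500 fell from a high level to a trace. The time-0 libraries held 6757, 18184, 16711, 19902, 22680 and 20888 normalized counts in the order of their replicate numbers. At 72 they held 19.9, 26.8, 15, 7.38, 11.4 and 19. The groups lay far apart, and replicate 1 was the low library at time 0, below the other 5. The log2 fold change was -10.07 (SE 0.32, adjusted p = 3.65e-23, edgeR) and -10.23 without time-0 replicate 1. In the treated groups the medians at 72 were 9.14 with TGFb alone, 6.43 with Pirf, 7.36 with Nint and 1.99 with Sora, and no treated library exceeded 20.2. All libraries at 72, treated or not, thus lay at or below 26.8 normalized counts.

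ENSRNOG00000007509 had the highest log2 fold change among the IDs that met the naming rule. The called genes with higher fitted values were at 0 in every time-0 library, had overlapping groups and averaged under 50 normalized counts at 72. At time 0 the libraries held 0, 3.21, 13.4, 0, 0 and 2.35 normalized counts, and at 72 they held 309, 491.6, 261, 288, 335 and 186. Every library at 72 stood more than 10 times above the highest at time 0, which was replicate 3. The log2 fold change was 6.68 (SE 0.57, adjusted p = 1.96e-12, edgeR) and 8.07 without replicate 3. With treatment the medians at 72 were 130.3 with TGFb, 48.7 with Pirf, 160.1 with Nint and 230.6 with Sora, against 298 in untreated slices. The highest Pirf library, at 101, lay below the lowest untreated library at 72, and all treated libraries lay above every time-0 library.

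ENSRNOG00000006926 rose by the next largest factor among the IDs that met the naming rule, from a measurable level. The time-0 libraries held 9.15, 8.01, 110.3, 4.66, 11 and 4.7 normalized counts, and those at 72 held 1686, 1013, 818, 1455, 2002 and 1061. Replicate 3 was again the high library at time 0, 10 times above the next. The log2 fold change was 5.84 (SE 0.49, adjusted p = 1.48e-12, edgeR) and 7.5 without replicate 3. At 72 the median was 1258 in untreated slices, 1389 with TGFb, 1459 with Nint and 675 with Sora. With Pirf it was 107.4, with all 6 libraries between 82.9 and 127.8, a range that includes the level of time-0 replicate 3. Treated and untreated values are levels set side by side, and no test of their difference is given here.

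**Figure D4:**
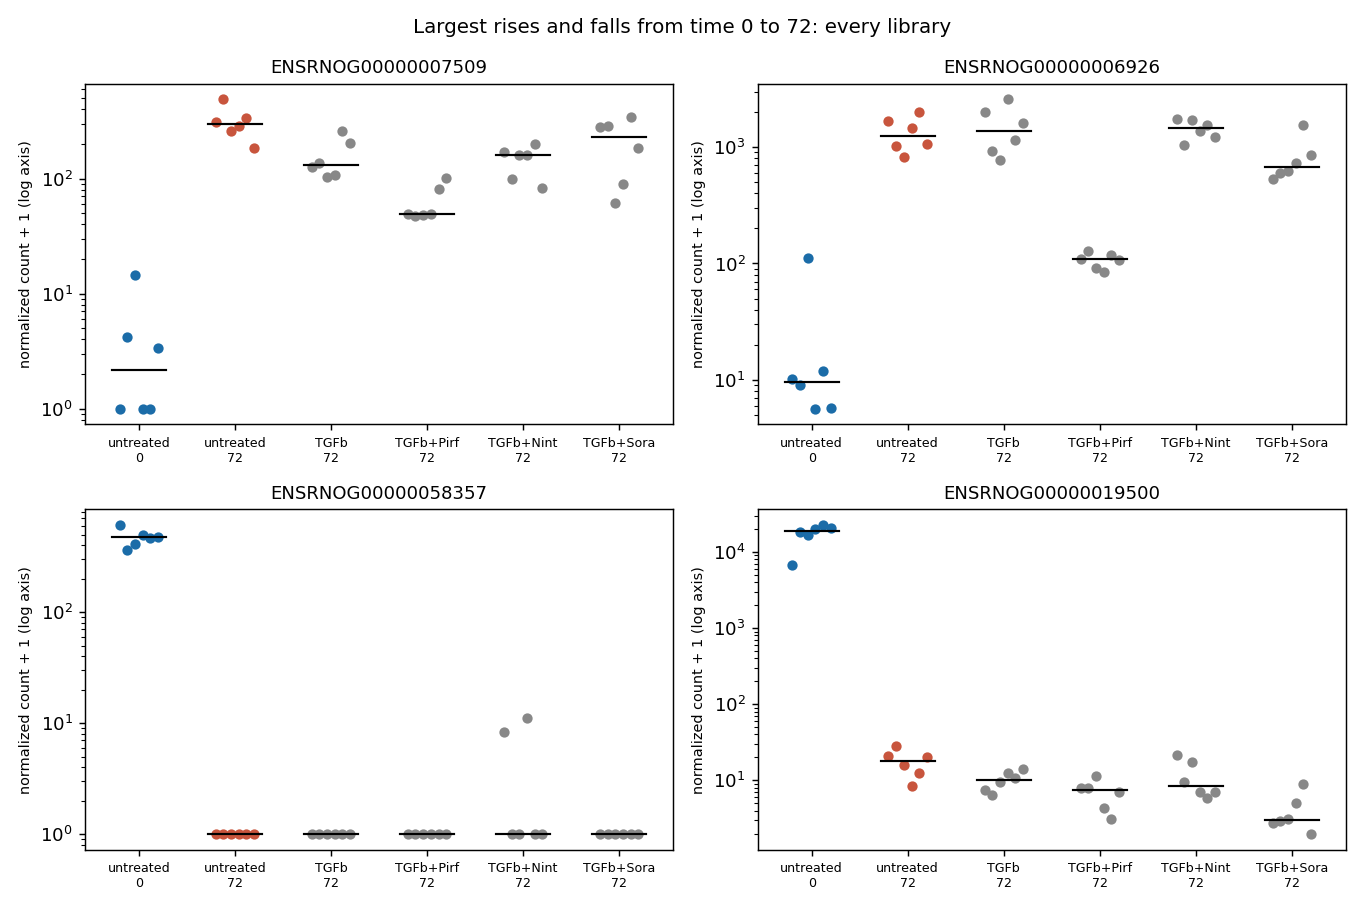
Normalized count plus 1 (y axis, log scale) of 4 IDs in every library, by group (x axis), with time 0 in blue, untreated 72 in red, treated groups in grey and a line at each group's median. The upper panels show the IDs that rose, where time-0 replicate 3 is the highest blue point, and the lower panels those that fell to 26.8 or less in every untreated library at 72.

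None of 6 measures of whole libraries passed its test after correction. The 10 most abundant genes held 13.8% ± 1.12 of counts at time 0 and 12.1% ± 1.19 at 72 (exact permutation p = 0.0303, two-sided, adjusted p = 0.127 over 6 measures), a difference that failed the correction. Counts outside the coding table made up 12.7% ± 1.27 at time 0 and 11.2% ± 1.12 at 72 (exact permutation p = 0.0584, adjusted p = 0.127). At one common total of 15886927 counts, 18452 ± 398 genes were detected at time 0 and 17951 ± 551 at 72 (exact permutation p = 0.106, adjusted p = 0.127). The number of genes that together held 50% of the counts was 644.5 ± 64.8 and 654 ± 65.7 (exact permutation p = 0.816). Total counts and TMM factors gave adjusted p = 0.127 each by the same exact permutation test. The smallest p that 6 against 6 libraries allow is 0.0022. In each of these 6 measures the ranges of the groups overlapped, in contrast to the 49.3% of single genes whose ranges did not.

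**Figure D5:**
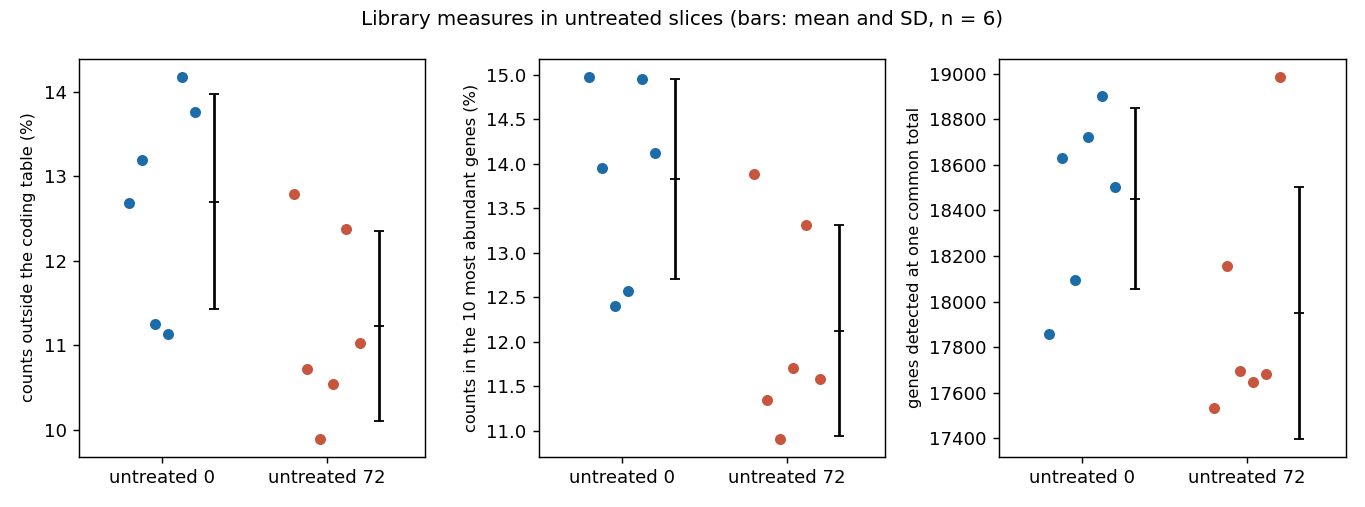
Share of counts outside the coding table, share in the 10 most abundant genes, and genes detected at one common total (y axes) in the 6 time-0 (blue) and 6 time-72 (red) untreated libraries, with bars for mean and SD. The groups overlap in all 3 panels, for example 12.4% to 15% against 10.9% to 13.9% for the 10 most abundant genes.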

How the data were processed

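Per the labels' protocols, total RNA from each slice sample was extracted with a 96-well kit and made into stranded libraries after ribosomal RNA removal. The submitters' processing notes name RSEM, edgeR and genome build Rnor_6.0. Aligner, annotation release and strand setting were not stated there. Columns were matched to samples by the well code in the sample descriptions. The deposited expected counts per gene are the authors' RSEM estimates, unscaled, and 8.59% of values were not whole. RSEM can divide reads among near-identical genes, which was not checked. The deposited log2 CPM values of the coding table (14984 genes) were checked to equal edgeR's log2 CPM with TMM factors (prior count 0.25), the largest difference being 5e-14.

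Expected counts were rounded and analysed with edgeR 4.0.16 in R 4.3.3: filterByExpr, TMM factors, and one quasi-likelihood fit of all 36 libraries with a mean per group (30 residual degrees of freedom). DESeq2 1.42.0 and limma 3.58.1 served as alternatives. Correlations and held-out positions used log2 CPM with a prior count of 2. SE is the absolute log2 fold change over the square root of F. The fit was tested on simulated data in which few genes changed, in equal numbers up and down. That test does not cover data in which most genes change or some libraries stand apart. Replicate numbers were not treated as pairs. The members, gene lists and naming rule were chosen with earlier results of these data known. The 48 gene lists by symbol were not run, since no ID was paired with a symbol. The closing section names alternatives added after seeing the data. IDs were named by the rule given in the text.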

Additional observations from a re-analysis of the deposited data

Results flagged for a closer look

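In 44 sets of 6 libraries, the highest or lowest library was compared with the rest by Dixon's ratio (the gap to its nearest neighbour over the whole range) against the 95% limit. About 5% of sets pass by chance where the values are independent and normally distributed. Normalized counts were taken unlogged, held-out values share reference libraries, and the sets are not independent, so this share is only a rough guide. Among the 44 sets, 6 passed. Of these, 4 concern time-0 replicate 3. It held 13.4 normalized counts of ENSRNOG00000007509 (ratio 0.761) and 110.3 of ENSRNOG00000006926 (ratio 0.94), each the highest at time 0. In the genes called at least 4-fold higher without it, its median stood 0.95 on the log2 scale above the other 5 time-0 libraries (ratio 0.777), and 75.4% of those genes lay nearer to the time-0 mean than to that at 72 (ratio 0.727). Time-0 replicate 1 held 6757 normalized counts of ENSRNOG00000019500, the lowest at time 0, with a ratio only just past the limit. Outside the untreated slices, 1 library with TGFb and Sora held 1558 normalized counts of ENSRNOG00000006926 (ratio 0.681). No cause of these values was tested.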

How the results depend on the processing

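Each of the 4 counts of called genes stayed within 1.5 times its value under 21 alternatives, and the 4 named IDs kept their direction and their call. In an edgeR fit of the 12 untreated libraries alone, the adjusted p was 3.84e-07 for ENSRNOG00000007509 and 5.17e-06 for ENSRNOG00000006926. In that fit it was 1.22e-09 for ENSRNOG00000019500 and 2.93e-08 for ENSRNOG00000058357. These values were larger than in the main fit for all but ENSRNOG00000058357. The balance of the directions turned to more lower than higher genes with DESeq2 (5812 higher, 6306 lower) and with no filter on low counts (5871 higher, 6233 lower). Both started from genes that the main fit had filtered out as well. Counts at 4-fold and more were recomputed under these alternatives after seeing the data and moved further, as given in the text. The number called ranged from 9038, against a fold of 1.2, to 12118 with DESeq2, and the number called at 2-fold or more from 3933, in a fit of the 12 untreated libraries alone, to 5256 with no filter on low counts. Leaving out 1 untreated library gave 11214 to 11474 genes. With thinned libraries 11333 were called. Chosen after seeing the data, limma on the deposited log2 CPM of the coding table called 11089 and the fit without time-0 replicates 1 and 3 called 11499. Scaling moved the median of all genes by 0.07 on the log2 scale. With the replicate number as a block 11519 genes were called, 5982 higher and 5537 lower, and the 4 named IDs kept their call. The block was not run for the library measures or the genes without overlap. Deviations of same-numbered libraries correlated at -0.01 to 0.26, over 0.1 for 2 of 6 numbers. Of the time-0 libraries, 2 of 6 correlated best with their own number. The labels name no animal, and these correlations cannot tell whether same-numbered slices share one. The difference in the number of genes holding 50% of counts, 72 minus 0, was never called and ranged from -6.3 to 29.9 when 1 library was left out, being -0.133 without time-0 replicate 5 and -6.3 without untreated replicate 3 at 72. Leaving out libraries one at a time was also chosen after seeing the data for these measures and for the genes without overlap. Those genes then numbered 7836 to 8381, a number that leaving out a library cannot lower, or 7378 with no scaling factors. The other 5 library measures kept their direction and stayed uncalled in all 12 such settings. Counts of called genes by symbol list were not run. The median standard error was 0.31 in the least abundant class of genes.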

Other observations

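Counting over single genes gave the same 2 time-0 libraries as the correlations. Both come from the same expression values, so the count adds no independent support. The ratio was taken on unlogged counts, where a high library stands out more readily than a low one. Among 12694 genes with a mean of at least 50 normalized counts at time 0, Dixon's ratio set 1 library apart in 9.26%, against 3.83% of 12623 genes at 72. At time 0, replicate 3 was the one standing high in 445 genes and replicate 1 in 387, while each of the other 4 stood high in 20 to 50. Replicates 1 and 3 stood low in 81 and 62 genes, and the other 4 in 9 to 34. At 72 no library stood high in more than 81 genes or low in more than 45. Of the 23 genes with counts in all time-0 libraries and none in untreated slices at 72, 1 was also at 0 in all 24 treated libraries, and none had counts in all 24. Of the 14 genes seen in all 6 untreated libraries at 72 and in none at time 0, none had counts in all 24 treated libraries.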
